A study of Mus musculus with 13 samples.

Results

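A set of 10 genes of activin, BMP and TGF-beta signaling was followed across excitatory neurons of the mouse claustrum: Inhba, Inhbb, Bmp3 and Tgfb2 (ligands), Acvr1c, Bmpr1b and Bmpr2 (receptors), and Chrdl1, Fst and Fstl4 (secreted antagonists and related proteins). The genes were listed by symbol with earlier results of these cells known, and 10 of 10 were present among 23427 gene rows of both count tables. Cells were kept when they held at least 1 count of Snap25, a neuronal SNARE protein, and of Slc17a7, a vesicular glutamate transporter of excitatory neurons, which retained 1011 of 1112 cells. All 4 mice were mature male C57BL/6 animals. In 1 mouse (238 kept cells), rAAV2-retro-CAG-GFP injected into the anterior cingulate cortex guided the dissection, and cells were picked blind to GFP. The sample titles label the plates of this mouse "WT mouse, no projection" (WT, wild type). Plates of the remaining mice are titled "projection", with no genotype. In the other 3 mice (224, 220 and 329 kept cells), green retrobeads had been injected into the lateral entorhinal cortex (LEC) and red retrobeads into the retrosplenial cortex (RSC), and RSC-labeled, LEC-labeled and unlabeled cells were harvested. All 4 mice thus carried a tracer, and the age was given only as mature.

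Activins are dimers of inhibin beta subunits, encoded by Inhba and Inhbb, that signal through a type II receptor, a type I receptor and Smad2 and Smad3. BMPs use related receptor pairs and Smad1, Smad5 and Smad9, and secreted proteins such as follistatin, chordin and chordin-like 1 bind the ligands outside the cell. In forebrain neurons, activin A is known as an activity-regulated factor that acts on excitatory synapses.

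Sequence upstream of the genes for both activin beta subunits is shown because those genes, whose products form the same kind of dimer, had unlike levels across the cells described below. A promoter entry was found in the RefSeq table (build GRCm38.p6) for 7 of 10 members. Each sequence is the 250 bases before the annotated start, and neither window held an exon of the GENCODE annotation. Capitals mark TATAAA, searched on both strands, a motif that was chosen after the sequences were seen.
Inhba, chr13:16011601-16011850, plus strand: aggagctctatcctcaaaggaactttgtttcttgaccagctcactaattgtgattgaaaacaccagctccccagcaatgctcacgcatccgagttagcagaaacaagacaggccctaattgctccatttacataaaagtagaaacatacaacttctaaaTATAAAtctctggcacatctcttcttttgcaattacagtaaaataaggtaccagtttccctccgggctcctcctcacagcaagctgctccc
Inhbb, chr1:119422249-119422498, minus strand: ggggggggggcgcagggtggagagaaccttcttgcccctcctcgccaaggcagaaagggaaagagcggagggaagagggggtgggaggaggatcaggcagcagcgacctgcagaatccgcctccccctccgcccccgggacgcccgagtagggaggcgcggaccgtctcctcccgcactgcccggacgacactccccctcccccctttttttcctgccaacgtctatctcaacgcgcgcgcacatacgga
The Inhba window held TATAAA on its own strand at position -91 from the start and had a GC content of 43.2%. The Inhbb window held no match and had a GC content of 68.0%, against a median of 52.4% over all windows. TATAAA occurred in 12.4% of 32851 upstream windows of the same length. Both windows held no match to TGACGTCA (1.55% of windows), to TGACG, which lies within it (17.8%), to TGANTCA (6.75%), to GTCTAGAC (0.167%) or to GGCGCC (9.59%). These matches describe letters and not sites in use.

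Counts were summed per mouse within each group of cells and scaled to CPM (the count as a share of all counts in the sum, on a fixed scale) with edgeR's TMM factors. Levels below are on that scale, apart from class cuts in single cells and values within the plate that held both labels. Those used CPM without TMM factors. The median total count per kept cell was 26023 in the blindly sampled mouse and 138535 to 154262 in the projection mice. This gap in depth and the animal cannot be told apart. Plates were sequenced on a pair of flow cells. By the paper, 3 plates ran on a mid-output flow cell with a longer second read, and the rest on a high-output flow cell. Which plates these were is not given in the sources used here. The blindly sampled mouse had 3 plates, but so did some of the projection mice. Flow cell and read length may thus also coincide with the animal, and their part in the levels of the blindly sampled mouse was not tested. Each label of a projection mouse came from its own plate, apart from 1 plate of projection mouse 3 that held 34 RSC-labeled and 44 LEC-labeled cells, so elsewhere label and plate cannot be told apart. Of 368 cell barcodes, 343 were used on more than 1 plate and 0 within a plate, and no pair of cells had identical counts. Fst, Acvr1c and Tgfb2 each overlap an exon on the opposite strand (Gm47040, Gm13544 and Gm29491), and counting by strand was not stated, so reads of these pairs cannot be told apart. In sums over cells, a lower level can mean fewer cells with the transcript or less transcript per cell.

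Cells were first split by Synpr, which encodes synaptoporin and marks claustrum core neurons, at 200 CPM, and by Slc30a3, which encodes a vesicular zinc transporter and marks shell neurons, at 20 CPM. Synpr divided the cells into 438 high and 573 low, and Slc30a3 into 379 high and 632 low. The Synpr values nearest the cut were 199.9 and 209.3 CPM, with 21 cells between 100 and 400 CPM. Those for Slc30a3 were 19.7 and 23.1 CPM, with 27 cells between 10 and 40 CPM. The cells and their classes were thus chosen by measured counts of Snap25, Slc17a7, Synpr and Slc30a3, so class differences are given as a description with no test. Marker sums are a description only, since the core list holds Synpr and the shell list holds Slc30a3. The 6 core markers summed to 6127 to 6484 CPM in Synpr-high and 328 to 720 CPM in Synpr-low cells. The 3 shell markers summed to 905 to 1831 CPM in Slc30a3-high and 90.0 to 516 CPM in Slc30a3-low cells. Synpr alone averaged 1759 CPM in its high and 9.05 CPM in its low class. Slc30a3 alone averaged 367 and 0.92 CPM in its classes. Markers of other cell types also moved with the Synpr classes without overlap. Layer 6 markers were at 28.2 to 66.9 CPM in Synpr-high and 488 to 1997 CPM in Synpr-low cells, 5 fibroblast markers at 0 to 0.569 and 2.65 to 75.3 CPM, and 6 astrocyte markers at 3.88 to 7.46 and 8.61 to 13.2 CPM. Lum and Aqp4 were at 0 in each Synpr-high sum, and Igf2 in each Synpr-low sum. Their part in the class differences below was not tested.

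Among ligands, Inhba was lower in the Synpr-high class of each of 4 mice, though by very different amounts. In the order blindly sampled mouse, projection mouse 1, 2 and 3, which holds for all lists of 4 values here, Inhba was at 45.8, 17.5, 32.4 and 39.0 CPM in Synpr-low cells and at 34.5, 3.04, 0.894 and 3.49 CPM in Synpr-high cells. The blindly sampled mouse stood apart: its Synpr-high level lay within the range of the Synpr-low levels, and the 3 projection mice alone did not overlap. The mean log2 difference, high minus low, of log2(CPM + 1) was -2.47 ± 1.59 (SD, n = 4 mice). The same mouse was also the highest in Slc30a3-low cells. By Slc30a3, Inhba was at 70.7, 23.4, 38.5 and 43.9 CPM in high cells and at 23.9, 5.14, 5.10 and 6.95 CPM in low cells, a mean log2 difference of 2.18 ± 0.52 with each mouse higher but a slight overlap between the classes.

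Counts of 10 immediate-early and activity-regulated genes (Fos, Arc, Npas4, Bdnf and others) are given beside Inhba because its transcript is known to follow neuronal activity. Their summed level in Synpr-high cells was 3168 CPM in the blindly sampled mouse and 1469, 1656 and 2474 CPM in the projection mice. In Synpr-low cells it was 1135, 654, 801 and 1426 CPM. The list was thus higher in the class where Inhba was lower, and it was highest in Synpr-high cells of the mouse with the high Inhba level. Its part in the Inhba level was not tested.

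Inhbb, which encodes the other activin beta subunit, did not follow Inhba. It was at 5.28, 1.96, 0.975 and 2.59 CPM in Synpr-high cells and at 4.50, 0.877, 1.26 and 2.34 CPM in Synpr-low cells, and the classes overlapped. The Inhbb level rested on few cells: 36 of 1011 held a count, and the highest cell carried 12.1% of 264 counts. By Slc30a3 the mean log2 difference was -0.74 ± 1.16, with 3 mice lower and 1 higher in the high class.

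Bmp3, a BMP-family ligand known to oppose other BMPs, separated the Synpr classes without overlap. It was at 6.22, 7.82, 12.9 and 7.05 CPM in Synpr-high cells and at 28.1, 35.4, 38.2 and 50.1 CPM in Synpr-low cells. The means differed 4.46-fold, a mean log2 difference of -2.05 ± 0.48. By Slc30a3, Bmp3 was at 31.0, 39.0, 34.5 and 47.7 CPM in high cells and at 10.8, 15, 24.3 and 16.5 CPM in low cells. These levels did not overlap either, at a mean log2 difference of 1.18 ± 0.47.

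Tgfb2, a TGF-beta ligand, was also lower in Synpr-high cells. It was at 4.04, 1.79, 7.07 and 0.647 CPM in Synpr-high cells and at 16.4, 19, 14.1 and 16.7 CPM in Synpr-low cells. The Synpr-low levels were close to each other (16.5 ± 2.01 CPM), whereas the Synpr-high levels were spread over the mice. By Slc30a3, the levels were 23.4, 24.5, 16.0 and 18.3 CPM in high cells and 3.6, 4.87, 7.54 and 2.61 CPM in low cells, again without overlap.

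Of the receptors, Bmpr1b, a type I BMP receptor, was lower in Synpr-high cells without overlap. It was at 3.11, 0.217, 3.25 and 2.62 CPM in Synpr-high cells and at 9.53, 12.2, 9.91 and 7.46 CPM in Synpr-low cells. The other type I receptor, Acvr1c (ALK7), was at 19, 15.7, 18.6 and 26.1 CPM in Synpr-high cells and at 19.9, 30.9, 38.9 and 63.4 CPM in Synpr-low cells. Each mouse was lower in the high class, but the classes overlapped, and the blindly sampled mouse differed little. By Slc30a3, Acvr1c had a mean log2 difference of 1.0 ± 0.21, the smallest SD of the 10 members there. Bmpr2, a type II BMP receptor, overlapped in both splits, with mean log2 differences of -0.45 ± 0.92 by Synpr and 0.38 ± 0.54 by Slc30a3.

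The secreted antagonists and related proteins moved in opposite directions. Fstl4, a follistatin-like protein, was the only member higher in Synpr-high cells without overlap. It was at 77.1, 65.9, 68.8 and 83.7 CPM in Synpr-high cells and at 30.4, 30.3, 32.2 and 42.3 CPM in Synpr-low cells, a mean log2 difference of 1.11 ± 0.14. Chrdl1, a BMP antagonist, was at or near 0 in Synpr-high cells, at 0, 0, 0.244 and 0.036 CPM in that class. In the low class it was at 1.06, 0.619, 24.1 and 13.5 CPM, so projection mice 2 and 3 carried most of it. Fst, the activin-binding follistatin, was at 3.73, 0.435, 0 and 0 CPM in Synpr-high cells and at 14.8, 2.84, 0.791 and 2.49 CPM in Synpr-low cells. The blindly sampled mouse was the highest in each class, and 28 cells in all held a Fst count.

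Over the 10 members, 4 were lower and 1 was higher in the Synpr-high class with no overlap between the levels of the 4 mice. Of 13641 genes, 15.6% did not overlap in either direction (7.93% higher and 7.63% lower). By Slc30a3, 4 members were higher and 1 (Fstl4) was lower without overlap, where 10.6% of 13495 genes did so (4.3% higher and 6.29% lower). Since the members were chosen with values of these cells known, nothing is read from these counts.

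**Figure D1:**
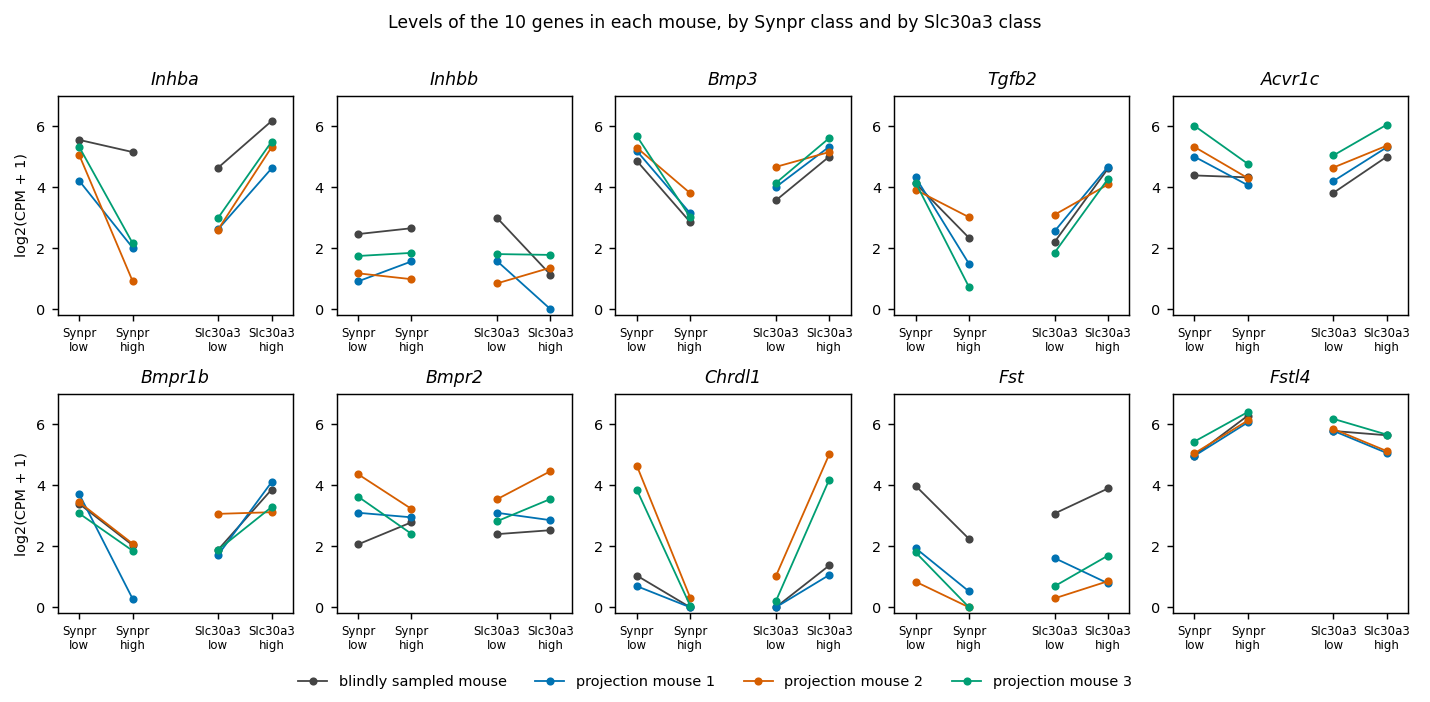
Levels of the 10 genes, as log2(CPM + 1) on the vertical axis, in Synpr-low, Synpr-high, Slc30a3-low and Slc30a3-high cells, with a line joining the classes of each of 4 mice. Lines for Bmp3, Tgfb2, Bmpr1b and Chrdl1 fall from Synpr-low to Synpr-high and those for Fstl4 rise, while the line of the blindly sampled mouse for Inhba falls little (45.8 to 34.5 CPM).

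Splitting cells by both genes separated 418 Synpr-high and Slc30a3-low cells, 359 Synpr-low and Slc30a3-high cells and 214 cells low in both, while 20 cells were high in both. Inhba was at 71.9, 25.2, 41.0 and 46.5 CPM in Synpr-low, Slc30a3-high cells but at 5.92, 9.12, 12.9 and 19.3 CPM in cells low in both, with no overlap. Bmp3 did not separate these groups: it was at 31.5, 38.3, 34.6 and 49.4 CPM and at 22.4, 33, 49.3 and 53.8 CPM respectively. Low Synpr thus went with high Bmp3 whether or not Slc30a3 was high, whereas high Inhba went with high Slc30a3 among Synpr-low cells. Cells high in both genes gave a sum in only 2 mice. Their Bmp3 was at 21.3 CPM in the blindly sampled mouse (8 cells) and 50.9 CPM in projection mouse 1 (5 cells). In Synpr-high, Slc30a3-low cells it was at 4.76 to 11.1 CPM, so high Bmp3 was not confined to Synpr-low cells in these few cells.

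Tgfb2 took an intermediate level in cells low in both genes. It was at 20.6, 25.5, 17.0 and 19.4 CPM in Synpr-low, Slc30a3-high cells and at 9.86, 11.9, 7.51 and 9.72 CPM in cells low in both. In Synpr-high, Slc30a3-low cells it was at 0.340, 1.37, 7.63 and 0.680 CPM. The upper group did not overlap either of the others, and the lower groups overlapped through projection mouse 2.

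Chrdl1 reached 33.4 and 18.3 CPM in Synpr-low, Slc30a3-high cells of projection mice 2 and 3, but 1.75 and 1.17 CPM in the blindly sampled mouse and projection mouse 1. In cells low in both it was at 0, 0, 2.45 and 0.547 CPM. Fstl4 was at 67.0 to 81.9 CPM in Synpr-high, Slc30a3-low cells, above its range of 30.9 to 46.0 CPM in Synpr-low, Slc30a3-high cells. Its level in cells low in both was 6.58 CPM in the blindly sampled mouse and 30.3 to 36.5 CPM in the projection mice.

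Cells low in both genes were also the highest for 9 layer 6 markers, which summed to 1031 to 4314 CPM there, to 302 to 521 CPM in Synpr-low, Slc30a3-high cells and to 28.1 to 69.5 CPM in Synpr-high, Slc30a3-low cells. The highest value was that of the blindly sampled mouse. Shell markers were also found in cells low in both, where the 3 summed to 206, 577, 1335 and 1587 CPM. This range overlapped that of Synpr-low, Slc30a3-high cells (963 to 1908 CPM) and lay above that of Synpr-high, Slc30a3-low cells (29.2 to 81.6 CPM). Slc30a3 itself, which is in the shell list, was at 0.658 to 1.92 CPM in cells low in both. The part of these cells in the levels above was not tested.

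**Figure D2:**
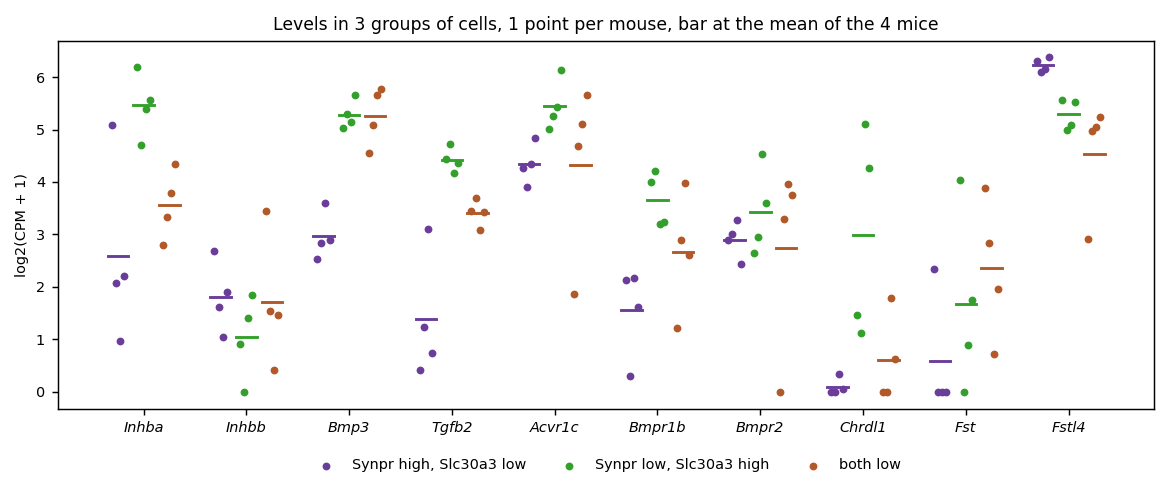
Levels of the 10 genes as log2(CPM + 1) in 3 groups of cells, with a point for each of 4 mice and a bar at their mean. Inhba and Tgfb2 are highest in Synpr-low, Slc30a3-high cells, and Bmp3 is at similar levels in both Synpr-low groups.

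Cells were thinned to 20000 counts each to compare how many held a transcript, which left out 84 cells, 67 of them from the blindly sampled mouse. Inhba was found in 17.9% of 521 thinned Synpr-low cells (exact 95% interval 14.7 to 21.4%) and in 7.88% of 406 Synpr-high cells (5.45 to 10.9%). In Synpr-high cells alone, 20 of 85 cells of the blindly sampled mouse held Inhba, against 5 of 87, 1 of 85 and 6 of 149 in the projection mice. In Synpr-low cells, 15 of 86 cells of the blindly sampled mouse and 14 of 130, 26 of 127 and 38 of 178 cells of the projection mice held it. At this depth the share was lower in Synpr-high cells in the projection mice but not in the blindly sampled mouse (23.5% against 17.4%). With all counts that mouse ran the other way, at 22 of 113 Synpr-high cells (19.5%) and 30 of 125 Synpr-low cells (24.0%). Its intervals overlapped in both forms, so no direction of the share is read for that mouse. The high Inhba level of that mouse was thus spread over many of its Synpr-high cells. Intervals cover counting error only.

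Bmp3 was found in 29.4% of Synpr-low and 7.14% of Synpr-high cells, and Tgfb2 in 10.6% and 2.71%. Fstl4 was found in 52.5% of Synpr-high and 26.7% of Synpr-low cells. Chrdl1 was found in 37 of 521 Synpr-low cells and in 0 of 406 Synpr-high cells. With all counts, 4 of 438 Synpr-high cells held Chrdl1 (0.913%, exact 95% interval 0.249 to 2.32%). Shares of Inhbb did not separate the classes, at 2.22% of Synpr-high and 2.30% of Synpr-low cells, and their intervals overlapped. In thinned Slc30a3-high cells, 82 of 350 held Inhba, 91 held Acvr1c and 32 held both, and none of the 82 held Fst, which 11 of the cells held. Of those 11 cells, 7 were from the blindly sampled mouse. In thinned Slc30a3-low cells, 43 of 577 held Inhba, 86 held Acvr1c and 7 held both. The overlap that independent genes would give was not computed, so neither joint expression nor exclusion is read.

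**Figure D3:**
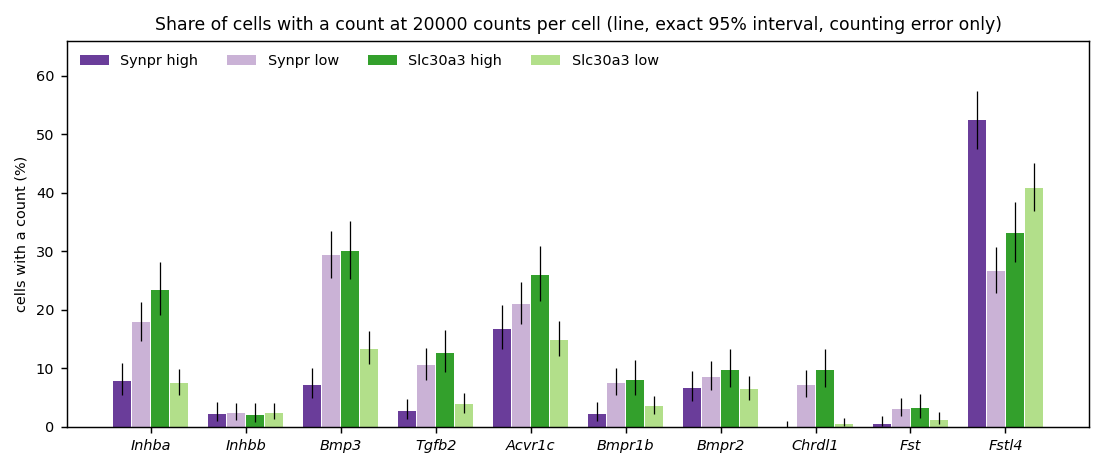
Share of cells with a count of each gene, in percent, after thinning to 20000 counts per cell, in 4 classes of cells pooled over mice; lines are exact 95% intervals for counting error only. Fstl4 is found in 52.5% of Synpr-high cells, and Bmp3 in 29.4% of Synpr-low against 7.14% of Synpr-high cells.

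Retrobead labels do not depend on expression, so RSC-labeled and LEC-labeled cells were compared by test, asking whether cells that project to different targets differ in these genes. All kept cells of a label were summed per mouse, giving 9 sums. The labels differ in class makeup, with 86.2% of 247 RSC-labeled, 15.7% of 286 LEC-labeled and 27.9% of 240 unlabeled cells Synpr-high. Of 13976 genes, 552 (3.95%) passed an adjusted p of 0.05 between RSC and LEC by the quasi-likelihood test of edgeR, adjusted by the Benjamini-Hochberg method over all genes. Of all genes tested, 1.89% were called higher and 2.06% lower in RSC. Levels of the 3 mice did not overlap between the labels for 22% of genes (11.3% lower in RSC), and for 6 of the 10 members, of which 5 were lower. Since the genes were listed with earlier results known, these member counts are not independent support. Values in the order projection mouse 1, 2 and 3 follow.

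Inhba and Bmp3 were the 2 members called, both lower in RSC-labeled cells. Inhba was at 4.24, 2.30 and 5.36 CPM in RSC-labeled cells and at 21.7, 29.6 and 39.8 CPM in LEC-labeled cells. The labels did not overlap, and the fitted level was 7.48-fold lower in RSC (log2 fold change -2.90, SE 0.66, adjusted p = 0.0346). Bmp3 was at 10.6, 16.1 and 7.61 CPM in RSC-labeled cells and at 29.0, 46.0 and 51.8 CPM in LEC-labeled cells. It was 3.74-fold lower in RSC (log2 fold change -1.90, SE 0.32, adjusted p = 0.00787), again without overlap.

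Both calls changed when a mouse was left out. For Inhba the adjusted p was 0.236 without projection mouse 2, 0.284 without projection mouse 3 and 0.0579 without the plate that held both labels. For Bmp3 it was 0.0619 without projection mouse 2 and 0.186 without projection mouse 3. Over all settings the adjusted p ran from 6.97e-05 to 0.284 for Inhba and from 6.22e-07 to 0.186 for Bmp3. The log2 fold changes stayed between -3.17 and -2.68 for Inhba and between -2.16 and -1.49 for Bmp3.

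Of the other ligands, Tgfb2 was at 2.08, 13.1 and 1.17 CPM in RSC-labeled cells and at 18.3, 7.78 and 15.4 CPM in LEC-labeled cells. Projection mouse 2 ran the other way from the remaining mice, and the difference was not called (log2 fold change -1.40, SE 0.74, adjusted p = 0.402). Without that mouse it was -3.38 with an adjusted p of 0.0457, the lowest over all settings (highest 0.815). Inhbb was at 2.77, 1.30 and 4.08 CPM in RSC-labeled and 1.09, 0.0811 and 2.51 CPM in LEC-labeled cells, higher in RSC in 3 of 3 mice but overlapping and not called (adjusted p = 0.748).

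Receptors were not called. Acvr1c was at 24.6, 13.2 and 29.4 CPM in RSC-labeled cells and at 32.6, 46.6 and 74.1 CPM in LEC-labeled cells, lower in 3 of 3 mice with no overlap (log2 fold change -1.18, SE 0.44, adjusted p = 0.190, from 0.0379 with cells thinned to 0.527 over all settings). Bmpr1b was at 2.70, 5.18 and 0.204 CPM in RSC-labeled and at 9.47, 14.8 and 11.3 CPM in LEC-labeled cells, also without overlap (adjusted p = 0.212). Bmpr2 showed no shared direction, with RSC levels of 7.86, 14.3 and 3.68 CPM and LEC levels of 1.70, 25 and 6.59 CPM (adjusted p = 0.894).

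Antagonists and related proteins again ran in opposite directions without a call. Fstl4 was at 72.2, 70.3 and 89.7 CPM in RSC-labeled cells and at 38.7, 42.5 and 58.3 CPM in LEC-labeled cells. It was 1.67-fold higher in RSC in 3 of 3 mice (log2 fold change 0.74, SE 0.20, adjusted p = 0.0640), and with mouse as a block the adjusted p was 0.0425 (0.0077 to 0.287 over all settings). Chrdl1 was at 0, 0.144 and 0.255 CPM in RSC-labeled cells, from 6 counts in all, and at 0.818, 25 and 14.6 CPM in LEC-labeled cells (log2 fold change -6.46, SE 1.77, adjusted p = 0.0719). With mouse as a block its adjusted p was 0.00693 (up to 0.362 over all settings), and projection mouse 1 held the transcript in only 1 LEC-labeled cell. Fst was at 0 CPM in 2 of 3 LEC sums and in 1 of 3 RSC sums, so no direction was read (adjusted p = 0.726).

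**Figure D4:**
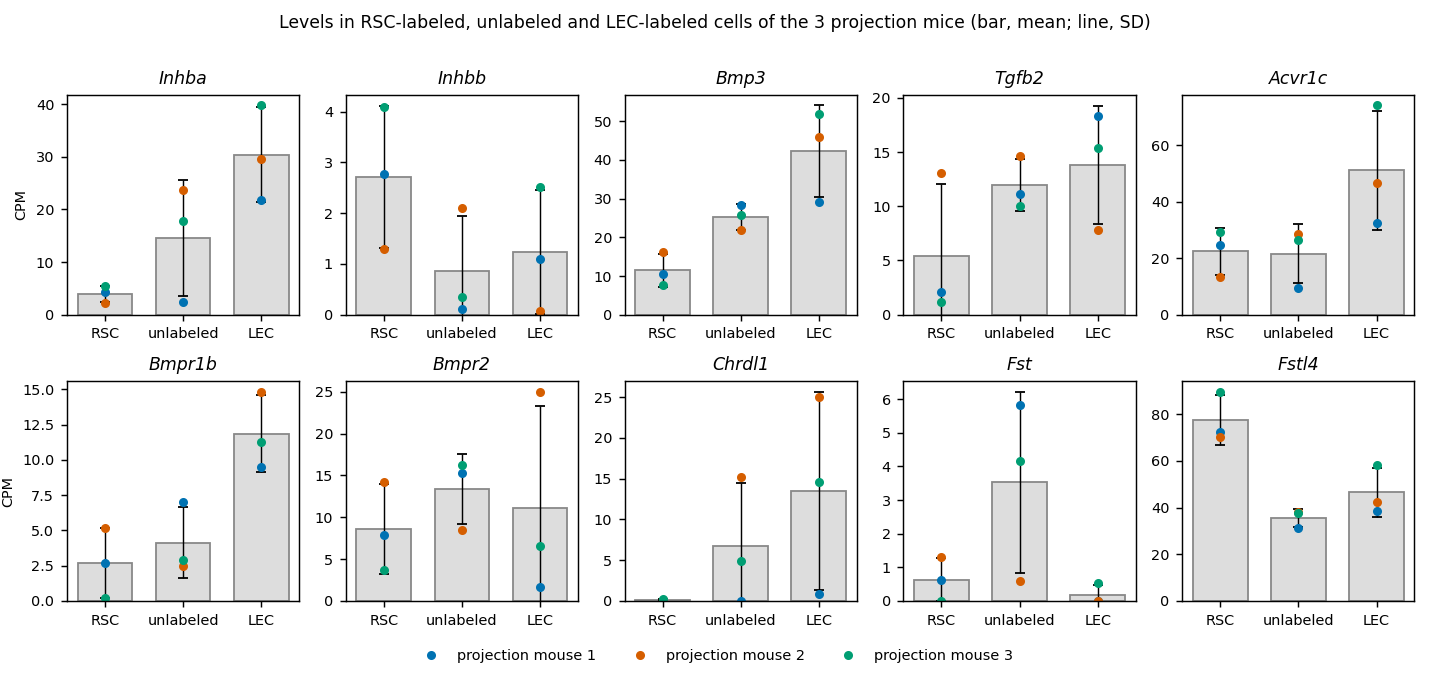
CPM of the 10 genes in RSC-labeled, unlabeled and LEC-labeled cells, with a point per projection mouse, a bar at the mean and a line for the SD (n = 3), cut at 0. Inhba rises from 3.97 CPM in RSC-labeled through 14.6 CPM in unlabeled to 30.4 CPM in LEC-labeled cells on average, and Fstl4 is highest in RSC-labeled cells at 77.4 CPM.

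Within the plate that held both labels, the directions for Inhba, Bmp3, Acvr1c and Tgfb2 were as in the sums, as values without a test. The plate values are CPM without TMM factors, so they are not on the scale of the sums. Inhba was at 2.30 CPM in RSC-labeled and 39.1 CPM in LEC-labeled cells, Bmp3 at 5.29 and 57.1 CPM, and Acvr1c at 22.0 and 75.5 CPM. Chrdl1 was at 0 and 14.7 CPM and Tgfb2 at 1.76 and 11.6 CPM. Fstl4 differed little there, at 80.0 and 81.4 CPM, and without this plate its log2 fold change over all mice was 0.96 (adjusted p = 0.0159). Inhbb ran the other way from the sums, at 0 CPM in RSC-labeled and 5.27 CPM in LEC-labeled cells (47 counts), and without this plate its log2 fold change was 2.65 (SE 1.26, adjusted p = 0.328).

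Marker lists of other cell types were summed in the same sums. Interneuron markers were at 8.06 to 203 CPM in RSC-labeled sums and 0.892 to 1.23 CPM in LEC-labeled sums, where Gad1, Gad2 and Sst were at 0 in each. Fibroblast markers were at 0.288 to 4.78 CPM in RSC-labeled and 21.8 to 87.5 CPM in LEC-labeled sums, with Lum and Igf2 at 0 in each LEC-labeled sum. Layer 6 markers were at 36.2 to 311 CPM and at 310 to 348 CPM, and the activity list at 1203 to 2100 CPM and at 986 to 1747 CPM. Their part in the label differences was not tested.

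**Figure D5:**
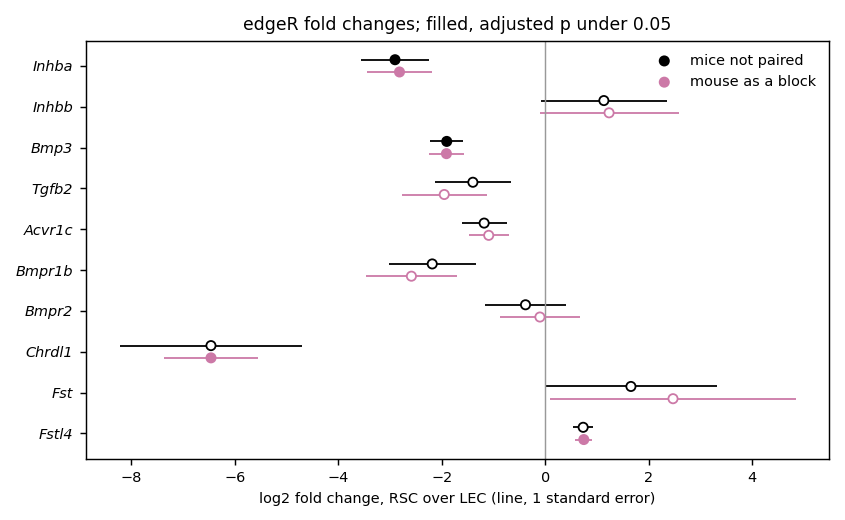
edgeR log2 fold changes of RSC over LEC for the 10 genes with 1 standard error, fitted without pairing (black) and with mouse as a block (pink); filled points have an adjusted p under 0.05. Inhba and Bmp3 are filled in both fits, and Chrdl1 and Fstl4 only with the block.

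Against unlabeled cells of the same mice, edgeR's quasi-likelihood test called 228 genes (1.63%, with 0.701% higher) for RSC. Fstl4 was the member called: unlabeled cells were at 31.3, 38.1 and 37.5 CPM, all below the RSC-labeled levels (log2 fold change 1.12, SE 0.20, adjusted p = 0.0223). The call was lost without each mouse in turn (adjusted p = 0.122, 0.184 and 0.177). Bmp3 was at 28.3, 21.8 and 25.8 CPM in unlabeled cells, above RSC in 3 of 3 mice but not called (log2 fold change -1.16, SE 0.31, adjusted p = 0.106, from 0.0135 by DESeq2 to 0.503 over all settings). Inhba was at 2.33, 23.6 and 17.8 CPM in unlabeled cells, and projection mouse 1 lay below its own RSC-labeled level (adjusted p = 0.221, from 0.0449 by DESeq2 to 0.682 over all settings). Chrdl1 was not called (adjusted p = 0.179, with 0.0365 under the mouse block and up to 0.545 over all settings), nor was Acvr1c (adjusted p = 0.978).

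For LEC against unlabeled cells, edgeR called 0 of 13976 genes (0%), with 1079 at an unadjusted p under 0.05 and 123 by DESeq2. Bmp3, Acvr1c, Inhba and Fstl4 were higher in LEC in 3 of 3 mice, with log2 fold changes of 0.74, 1.24, 1.05 and 0.38. By edgeR's quasi-likelihood test their adjusted p values were 0.604, 0.533, 0.762 and 0.709. Both comparisons share the unlabeled sums.

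To ask whether the label differences were present within each Synpr class, RSC and LEC were compared there from 12 sums of 8 to 114 cells. Within the Synpr-high class, edgeR called 0 of 12410 genes (0%), with 508 at an unadjusted p under 0.05 and 28 by DESeq2. The log2 fold changes of RSC over LEC were 0.82 (SE 1.10) for Inhba and -0.92 (SE 0.60) for Bmp3 there. Those for Fstl4 and Acvr1c were 0.12 (SE 0.40) and 0.23 (SE 0.76). None of these exceeded 2 standard errors, and the sums of 11 to 18 LEC-labeled cells were small.

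Within the Synpr-low class, edgeR called 24 genes (0.193%), none of them members. The log2 fold changes were -0.77 (SE 1.01) for Inhba, -0.12 (SE 0.58) for Bmp3, 0.48 (SE 0.41) for Fstl4 and -0.46 (SE 0.75) for Acvr1c. Each of these was nearer to 0 than that over all cells of the labels. Chrdl1 was at -3.53 (SE 1.66, adjusted p = 0.445 by edgeR's quasi-likelihood test). Inhbb was at 1.32 (SE 1.77), farther from 0 than its 1.14 over all cells. Synpr itself, which defined the class, had a log2 fold change of 1.85 (SE 0.35) there, as a description without a test. The cells may thus not have been of like Synpr level. Tgfb2 was at 7.94 (SE 2.06) within the Synpr-high class by edgeR's quasi-likelihood test, with an adjusted p of 0.938, and DESeq2 gave an adjusted p of 0.0488, the only setting of 8 with a call. Over all Synpr-high cells of projection mice 1, 2 and 3, only 5 of 88, 9 of 88 and 5 of 149 held a Tgfb2 count. That fold change thus rests on few cells, and its size is not read. In the Synpr-low class Tgfb2 was at -0.54 (SE 1.07).

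The difference of the RSC-LEC contrast between Synpr classes, tested as an interaction, was called by edgeR for 8 genes (0.0645%), none of them members. For Inhba it was 1.59 (SE 1.5), for Bmp3 -0.81 (SE 0.83) and for Tgfb2 8.49 (SE 2.40). The Tgfb2 value takes in the same sparse Synpr-high counts, so its size is not read. By edgeR's quasi-likelihood test the adjusted p values were 0.898, 0.914 and 0.321, and DESeq2 gave 0.0467 for Tgfb2, the only setting of 8 with a call for that gene. For Fstl4 and Acvr1c it was -0.36 (SE 0.57) and 0.68 (SE 1.07). Fst had too few counts to be tested within classes.

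In the wider pathway, 60 of 96 listed genes could be tested between RSC and LEC, and edgeR's quasi-likelihood test called 1 higher and 5 lower in RSC. Of all genes tested, 1.89% were called higher and 2.06% lower. Inhba and Bmp3 were 2 of the 5, and the lists were chosen with earlier results known, so these counts are not independent support. Chrd, which encodes the BMP antagonist chordin, was at 2.85, 3.74 and 0.868 CPM in RSC-labeled and at 18.1, 9.73 and 18.6 CPM in LEC-labeled cells (log2 fold change -2.69, SE 0.53, adjusted p = 0.0182). Crim1, a transmembrane BMP-binding protein, was at 0.462, 0.288 and 2.04 CPM in RSC-labeled and 8.52, 9.89 and 18.9 CPM in LEC-labeled cells (log2 fold change -3.60, SE 0.63, adjusted p = 0.0105). Neither gene overlapped between the labels.

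The gene called higher in RSC was Id2, a helix-loop-helix inhibitor known as a BMP target, at 776, 808 and 888 CPM against 578, 474 and 341 CPM (log2 fold change 0.83, SE 0.17, adjusted p = 0.0233). The calls of Chrd, Crim1 and Id2 did not each hold with a mouse left out: Chrd was lost without each of 3 mice, Crim1 without projection mouse 1 or 2, and Id2 without projection mouse 2 or 3. Against unlabeled cells, Chrd and Crim1 were lower in RSC by edgeR's quasi-likelihood test (adjusted p = 0.0305 and 0.0181). Chrd was not called there without each mouse in turn (adjusted p = 0.126, 0.168 and 0.238) or with mouse as a block (0.0652), nor Crim1 without projection mouse 1 (0.114), mouse 2 (0.184) or the plate that held both labels (0.0612).

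By role, the 11 ligands tested had a median log2 fold change of -1.21 with 2 called lower, and the 18 antagonists and binding proteins one of -0.23 with 3 called lower. None of 16 receptors (median -0.23) or 12 Smads and intracellular regulators (median -0.08) was called, and 1 of 6 target genes (median 0.32) was called higher. The median of all genes tested was -0.0012, and 3.95% of them were called (1.89% higher and 2.06% lower in RSC). Nothing is read from the counts by role.

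The same non-member genes separated the Synpr classes, as a description. Chrd was at 0.325 to 2.18 CPM in Synpr-high and 17.6 to 23.3 CPM in Synpr-low cells, and Crim1 at 0.569 to 5.59 CPM and 14 to 34.7 CPM. Id2 was higher in Synpr-high cells, at 803 to 1125 CPM against 313 to 456 CPM. Bmp2, a BMP ligand, was at 10.7 to 33.9 CPM in Synpr-high and 4.43 to 7.54 CPM in Synpr-low cells, the reverse of Bmp3.

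For each member, the gene whose log2(CPM + 1) was most correlated over 14 sums of mouse and class pair, of 14329 genes, is given as a description. Bmp3 was most like Galntl1 (Pearson r = 0.965), Inhba like Unc5a (0.959), Fstl4 like Rtn4r (0.956) and Bmpr2 like Anp32a (0.960). Bmpr1b was most like Stx16 (0.931), Chrdl1 like Tsix (0.922), Acvr1c like Kndc1 (0.919) and Fst like Tank (0.902). The lowest values were those of Tgfb2 with Sirt3 (0.895) and Inhbb with Azin1 (0.864). Sums of a mouse share plates and depth, and the highest of many correlations is large by choice.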

How the data were processed

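Cells were manually captured, reverse transcribed with barcoded primers, pooled by plate and sequenced as transcript ends, and the authors aligned reads with STAR and deposited raw counts per gene and cell (build NCBIM37 and Seurat in the submitters' notes). Totals per cell are described as reads in the study, and whether duplicate molecules were collapsed is not given in the sources used here. The members and lists were chosen with earlier results of these data known. Kept cells were summed per mouse and group, sums of at least 5 cells were used, and ERCC rows were left out. RSC, LEC and unlabeled sums were fitted together with edgeR 4.0.16 (TMM, filterByExpr, quasi-likelihood F test, Benjamini-Hochberg over all genes tested) in R 4.3.3, and DESeq2 1.42.0 was an alternative. The SE given for edgeR is the absolute log2 fold change divided by the square root of the F statistic. The scripts were tested on simulated data. Classes used a pseudocount of 1 and no test. Sums of 1 mouse share an animal, which is the pairing; deviations of sums from their group means had a median r of 0.0356 over 9 same-mouse pairs and -0.0205 over 18 different-mouse pairs. Named genes were the 10 members, each pathway gene called between RSC and LEC (1 of which is not reported here), the most correlated gene of each member and Synpr, Slc30a3, Snap25 and Slc17a7; Bmp2 was added after its values were seen.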

Additional observations from a re-analysis of the deposited data

Results flagged for a closer look

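Of 40 sets of 4 mice (10 genes in 4 classes), 10 had a mouse whose gap to the nearest other was large for the range by Dixon's criterion, which chance alone gives in about 1 set in 20. In the blindly sampled mouse these were Inhba in Synpr-high cells (34.5 CPM, next 3.49) and in Slc30a3-low cells (23.9 CPM, next 6.95), and Fst in Synpr-high (3.73 CPM), Synpr-low (14.8 CPM) and Slc30a3-high cells (13.9 CPM). In projection mouse 2 they were Chrdl1 in Synpr-high (0.244 CPM) and Slc30a3-low cells (1.02 CPM), and Bmpr1b in Slc30a3-low cells (7.37 CPM, next 2.70). In projection mouse 3 they were Fstl4 in Synpr-low (42.3 CPM) and Slc30a3-low cells (71.4 CPM). Cells of the 4 classes overlap, so these sets are not independent. The cause was not tested.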

How the results depend on the processing

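Between RSC and LEC, DESeq2 called 1227 genes and leaving out a mouse gave 59 to 391, lowest without projection mouse 3 (63 without projection mouse 2). For RSC against unlabeled cells, DESeq2 called 720, the fit without the plate that held both labels (an alternative chosen after seeing the data) 120, and leaving out a mouse 8 to 47. For LEC against unlabeled cells DESeq2 called 123, and leaving out a mouse 0 to 2. With mouse as a replicate block, since sums pair by animal, 539 genes were called between RSC and LEC, 204 for RSC and 2 for LEC against unlabeled cells, 15 within the Synpr-low class and 1 for the interaction. The block also lost Chrd for RSC against unlabeled cells (adjusted p = 0.0652) and kept Inhba (0.0428) and Bmp3 (0.0171) against LEC. DESeq2 alone called Bmp3 and Inhba for RSC against unlabeled cells. DESeq2 called 28 within the Synpr-high class, 403 within the Synpr-low class and 170 for the interaction. Leaving out a mouse, also chosen after seeing the data here, gave 0 within the Synpr-high class, 0 to 7 within the Synpr-low class and 0 to 1 for the interaction, and Synpr cuts of 100 and 400 CPM gave 3 and 4 for the interaction. The number of members whose classes did not overlap was 5 to 8 by Synpr with a mouse left out (8 without the blindly sampled mouse). By Slc30a3 it was 3 with a cut of 10 CPM, 1 with unlabeled cells only and 2 with cells thinned. The share over all genes was not taken in these settings, and with fewer mice the levels of any gene overlap less readily. Nothing is thus read from these member counts. Uncalled log2 fold changes that turned sign with a mouse left out were Bmpr2 between RSC and LEC (-0.83 to 0.46), Acvr1c for RSC against unlabeled (-0.35 to 0.58), Fstl4 (-0.21 to 0.39) and Acvr1c (-0.34 to 1.58) within the Synpr-high class, Tgfb2 within the Synpr-low class (-1.77 to 0.32), and Fstl4 (-0.98 to 0.12) and Bmp3 (-1.43 to 0.027) in the interaction. At a cut of 100 CPM, Inhba within the Synpr-high class was at -0.68 and Fstl4 in the interaction at 0.13. The causes were not tested.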
